A study of Mus musculus with 5 samples.

Results

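The master regulators of endoderm and mesoderm described here are 7 mouse transcription factor genes: Gata4, Gata6, Sox17, Foxa2, Eomes, T and Gsc. They were taken as 7 stretches of the mm9 build, 12 to 60 kb long, fixed by coordinates: chr14:63810001-63870000 (Gata4), chr18:11048001-11090000 (Gata6), chr1:4476001-4492000 (Sox17), chr2:147860001-147880000 (Foxa2), chr9:118383001-118400000 (Eomes), chr17:8620001-8640000 (T) and chr12:105704001-105716000 (Gsc). Within them, every CpG outside a CCGG site was used, since CCGG is what the enzyme MspI cuts and its ends can be rebuilt during library making. The loci held 560 of the 519976 such CpGs covered in Fbxl10 T/T cells and 592 of the 549046 covered in WT cells. Both libraries had enough reads to test 28 of the loci's 1-kb windows, out of 20072 windows tested across the autosomes and X.

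The study measured DNA methylation in mouse embryonic stem (ES) cells by reduced representation bisulfite sequencing, in which MspI fragments rich in CpG are converted so that an unmethylated C reads as T and a methylated C stays C. There was 1 library for each of 5 genotypes: Fbxl10 T/T, Ring1B -/-, Eed -/-, Ezh2 -/- and WT. The Fbxl10 T/T and WT cells were C57BL/6J, grown on inactivated fibroblast feeders in serum with leukemia inhibitory factor (LIF), separated from most feeders before use, and harvested at passage 17. The Ring1B -/-, Eed -/- and Ezh2 -/- cells were grown in serum with LIF, and the labels give neither strain nor passage for them, so that genotype, culture and line cannot be told apart in any comparison with these 3 libraries. The labels do not spell out the T allele of Fbxl10. With 1 library per genotype, each Fisher's exact test sets the reads of a library against those of another, not condition against condition, and has no replicate check. Several CpGs on 1 read are counted more than once and PCR copies are not marked, so intervals and p-values cover counting error only.

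FBXL10 (KDM2B) binds unmethylated CpG islands and brings a variant of Polycomb repressive complex 1 to them. RING1B is the ubiquitin ligase of that complex, while EED and EZH2 are core subunits of Polycomb repressive complex 2, which methylates lysine 27 of histone H3. In ES cells the promoters of lineage regulators are typical Polycomb targets: they are silent, rich in CpG and largely free of DNA methylation. The genes here switch on when cells leave pluripotency. T (brachyury), Eomes and Gsc (goosecoid) mark the primitive streak and early mesendoderm, Sox17 and Foxa2 the definitive endoderm, and Gata4 and Gata6 the primitive endoderm, the heart and later endodermal organs.

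The stretches shown here were picked to carry the contrast among the loci, so their levels do not stand for whole loci. None is from Gata6, and the Eomes stretch leaves out the 2 CpGs of that locus called higher. Each is written on the plus strand of mm9 as spelled by the sequence contexts in the deposited tables, and CpGs read in both Fbxl10 T/T and WT cells are in capitals.
Gsc, chr12:105711228-105711292: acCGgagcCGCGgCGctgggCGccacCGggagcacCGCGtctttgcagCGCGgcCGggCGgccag
T, chr17:8626744-8626770: tcCGCGgggcaaagtCGcaggCGcCGg
Gata4, chr14:63812654-63812709: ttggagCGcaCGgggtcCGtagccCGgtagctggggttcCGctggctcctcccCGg
Gata4, chr14:63864162-63864239: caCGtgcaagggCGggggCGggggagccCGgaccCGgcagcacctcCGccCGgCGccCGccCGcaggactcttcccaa
Sox17, chr1:4483420-4483465: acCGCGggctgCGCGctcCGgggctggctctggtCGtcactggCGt
Foxa2, chr2:147871879-147871917: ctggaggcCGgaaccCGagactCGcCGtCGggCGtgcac
Eomes, chr9:118388429-118388492: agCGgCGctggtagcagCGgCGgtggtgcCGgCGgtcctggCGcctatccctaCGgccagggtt

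The first 3 stretches were mostly methylated in Fbxl10 T/T cells and nearly free of methylation in WT cells. At the CpGs outside CCGG in the Gsc stretch, 81.1% of 371 reads were methylated in Fbxl10 T/T cells, against 1.36% of 733 reads in WT cells. The T stretch had 57.1% of 84 reads methylated in Fbxl10 T/T cells, against 3.57% of 224 in WT cells, and the first Gata4 stretch had 70.1% of 134 reads, against 3.64% of 275. The other 4 stretches, with 5 to 7 CpGs outside CCGG each, were low in both libraries. The second Gata4 stretch was methylated at 2.04% of 98 reads in Fbxl10 T/T cells and 8.70% of 115 reads in WT cells. In the Sox17 stretch the levels were 1.60% of 250 reads in Fbxl10 T/T cells and 1.33% of 451 reads in WT cells. The Foxa2 stretch had 0 methylated reads of 303 in Fbxl10 T/T cells, which allows a level of up to 1.25% (95% Wilson interval), and 1.42% of 351 reads in WT cells, and the Eomes stretch had 8.29% of 217 reads and 7.31% of 342 reads in Fbxl10 T/T and WT cells.

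Depth sets how much can be said of each library. At the loci the median CpG was read 30 times in Fbxl10 T/T cells, 2 times in each of Ring1B -/-, Eed -/- and Ezh2 -/- cells, and 40 times in WT cells. Outside CCGG the whole libraries held 15850683 CpG reads in Fbxl10 T/T cells, 989848 to 1106253 in the 3 Polycomb mutants, and 25424859 in WT cells, and their overall methylation was 21.0%, 11.3 to 12.8% and 13.6%. At cytosines of the loci that are not in CpG, 0.532% of reads showed C in Fbxl10 T/T cells and 2.27 to 2.89% in the Polycomb mutants, against 0.516% in WT cells. These values bound unconverted cytosine and non-CpG methylation together, and whether they add to the CpG levels of the Polycomb mutants was not tested.

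In Fbxl10 T/T cells 6 of the 28 windows were called higher than in WT cells and 1 was called lower. A call needed a difference of at least 20 percentage points and a Benjamini-Hochberg adjusted p under 0.05 over all 20072 windows, with at least 5 CpGs and 30 reads in both libraries. Genome-wide, 25.5% of tested windows were called higher and 2.66% lower, so the members' share of higher calls was near the background. The 6 raised windows reached 52.4 to 82.2% in Fbxl10 T/T cells, against 2.39 to 17.9% in WT cells, while the other 22 windows lay between 0 and 14.1% in Fbxl10 T/T cells, against 0.821 to 27.1% in WT cells. No tested window of the loci fell between 14.1 and 52.4% in Fbxl10 T/T cells. Windows of fewer than 5 CpGs, which were not tested, lay both inside and outside this range. Inside it, chr17:8627001-8628000 (T) was at 48.5% of 68 reads and chr9:118389001-118390000 (Eomes) at 38.4% of 86 in Fbxl10 T/T cells. The raised windows held 7 to 37 CpGs (median 11) and the others 5 to 79 (median 12.5), so the groups overlapped in CpG number.

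**Figure D1:**
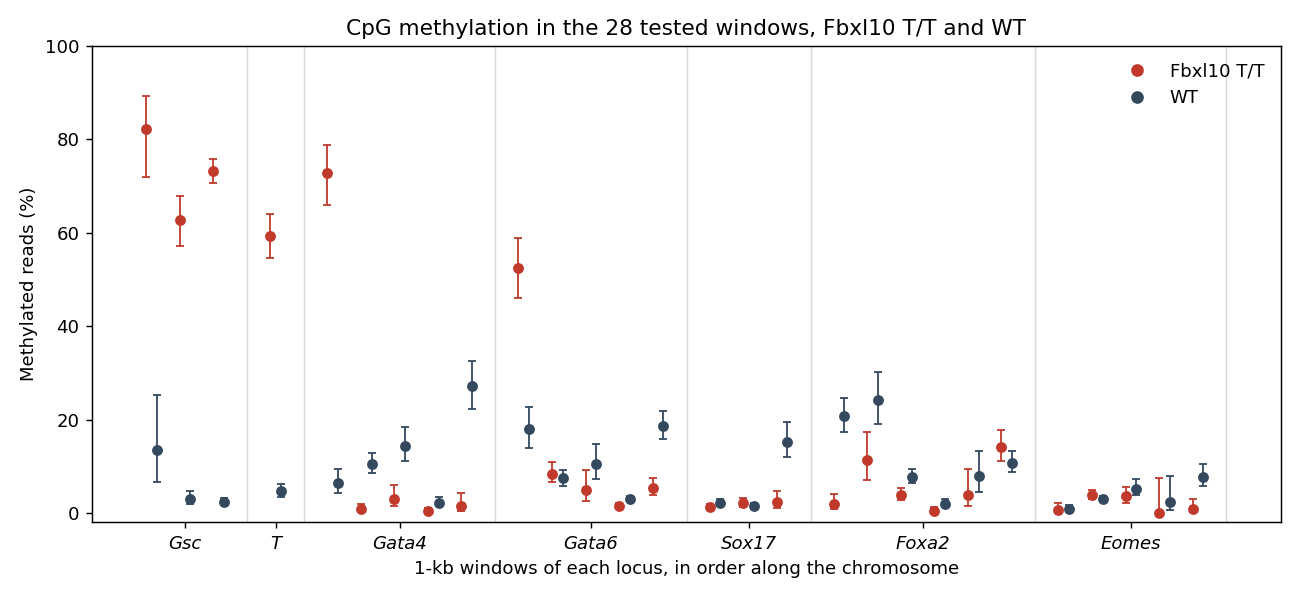
Percentage of methylated reads at CpGs outside CCGG in each of the 28 tested 1-kb windows, grouped by locus, for Fbxl10 T/T (red) and WT (dark) cells, with 95% Wilson intervals from read counts (1 library each). The 6 raised windows lie at 52.4 to 82.2% in Fbxl10 T/T cells and belong to Gsc, T, Gata4 and Gata6.

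Gsc, the homeobox gene of the primitive streak organizer, rose in every tested window. The 3 windows were called higher: chr12:105709001-105710000 was at 82.2% in Fbxl10 T/T cells against 13.5% in WT cells, chr12:105710001-105711000 at 62.7% against 3.04%, and chr12:105711001-105712000 at 73.2% against 2.39%. The last window rested on 1169 reads in Fbxl10 T/T cells and 2347 in WT cells, and its adjusted p was below 1e-300. Over the 65 CpGs shared by both libraries the locus was at 70.3% in Fbxl10 T/T cells and 4.07% in WT cells, a difference of 66.2 points (95% Newcombe interval 63.8 to 68.4).

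The rise at Gsc held at nearly every CpG. Of 54 single CpGs with at least 10 reads in both libraries, 49 were called higher (25 points or more, adjusted p under 0.05) and 0 lower, where 16.5% and 4.35% of 368305 CpGs genome-wide were called higher and lower. In chr12:105711001-105712000 all 37 such CpGs were called. They ran from 47.9 to 88.2% in Fbxl10 T/T cells (median 75, SD 9.45 over CpGs), against 0 to 21.7% in WT cells (median 1.19, SD 3.54). Neighbouring CpGs share reads, so they are not independent measurements. Toward the end of the locus WT cells were already methylated in part: the CpG at chr12:105712636 had 72.0% of 25 reads methylated in Fbxl10 T/T cells, against 25% of 40 in WT cells.

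T, the T-box factor of the primitive streak and notochord, had 1 tested window, chr17:8626001-8627000. Its level was 59.4% of 416 reads in Fbxl10 T/T cells, against 4.58% of 960 reads in WT cells (54.8 points, interval 49.8 to 59.5; Fisher's exact test, adjusted p = 2.66e-109). Single CpGs moved together here too: 19 of 21 were called higher and 1 lower, beside 16.5% and 4.35% of CpGs genome-wide. In that window the CpGs ran from 25 to 67.3% in Fbxl10 T/T cells (median 60.7), against 1.82 to 8.93% in WT cells (median 3.57), so the ranges of the libraries did not overlap. The 1 CpG called lower, chr17:8631244, lay outside the raised stretch and was at 23.5% of 17 reads in Fbxl10 T/T cells and 66.7% of 33 reads in WT cells.

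Gata4, a zinc-finger factor of primitive endoderm and heart, changed in opposite directions at its ends. The window chr14:63812001-63813000 was at 72.8% of 180 reads in Fbxl10 T/T cells, against 6.34% of 347 reads in WT cells (Fisher's exact test, adjusted p = 3.71e-57). The other 4 tested windows, which start 47 kb further along, were all lower in Fbxl10 T/T cells, each with an adjusted p under 0.05. In chr14:63865001-63866000, the 1 window of the loci called lower, the level was 1.47% of 204 reads in Fbxl10 T/T cells, against 27.1% of 284 reads in WT cells (-25.6 points, interval -31.2 to -20.1). It held 6 CpGs with reads in both libraries, of which 2 had at least 10 in each; at chr14:63865541, 0 of 89 reads were methylated in Fbxl10 T/T cells and 46 of 116 in WT cells. With at least 10 reads per CpG the window kept too few CpGs to be tested. In windows of 2 kb none of the loci was called lower. In chr14:63859001-63860000 the levels were 0.927% of 647 reads in Fbxl10 T/T cells and 10.5% of 775 reads in WT cells.

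Single CpGs at Gata4 showed the same split. Of 50 tested, 6 were called higher, all in the first window, and 5 lower, all in the stretch 47 kb away and beyond. Genome-wide 16.5% of 368305 CpGs were called higher and 4.35% lower. The steepest of the 5 was chr14:63860435, with 2.5% of 40 reads methylated in Fbxl10 T/T cells and 63.2% of 38 reads in WT cells. Which of these windows holds a start of Gata4 was not placed here, since no gene annotation of the mm9 build was used.

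Gata6, the zinc-finger factor that starts the primitive endoderm programme, also rose at 1 end. The window chr18:11048001-11049000 was at 52.4% of 229 reads in Fbxl10 T/T cells, against 17.9% of 290 reads in WT cells (34.5 points, interval 26.4 to 42). Of its 9 CpGs with at least 10 reads in both libraries, 3 were called higher, beside 16.5% of CpGs genome-wide. Starting 4 kb further along, the locus was low: the window with the most CpGs of all, chr18:11054001-11055000, was at 1.56% of 3271 reads in Fbxl10 T/T cells and 3.03% of 3888 reads in WT cells over 79 CpGs. In chr18:11055001-11056000 the level was 5.31% of 603 reads in Fbxl10 T/T cells and 18.6% of 667 reads in WT cells. That difference sat mainly at a pair of CpGs, chr18:11055447 and chr18:11055452, at 11.3 and 7.55% in Fbxl10 T/T cells and 71.2 and 64.2% in WT cells.

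**Figure D2:**
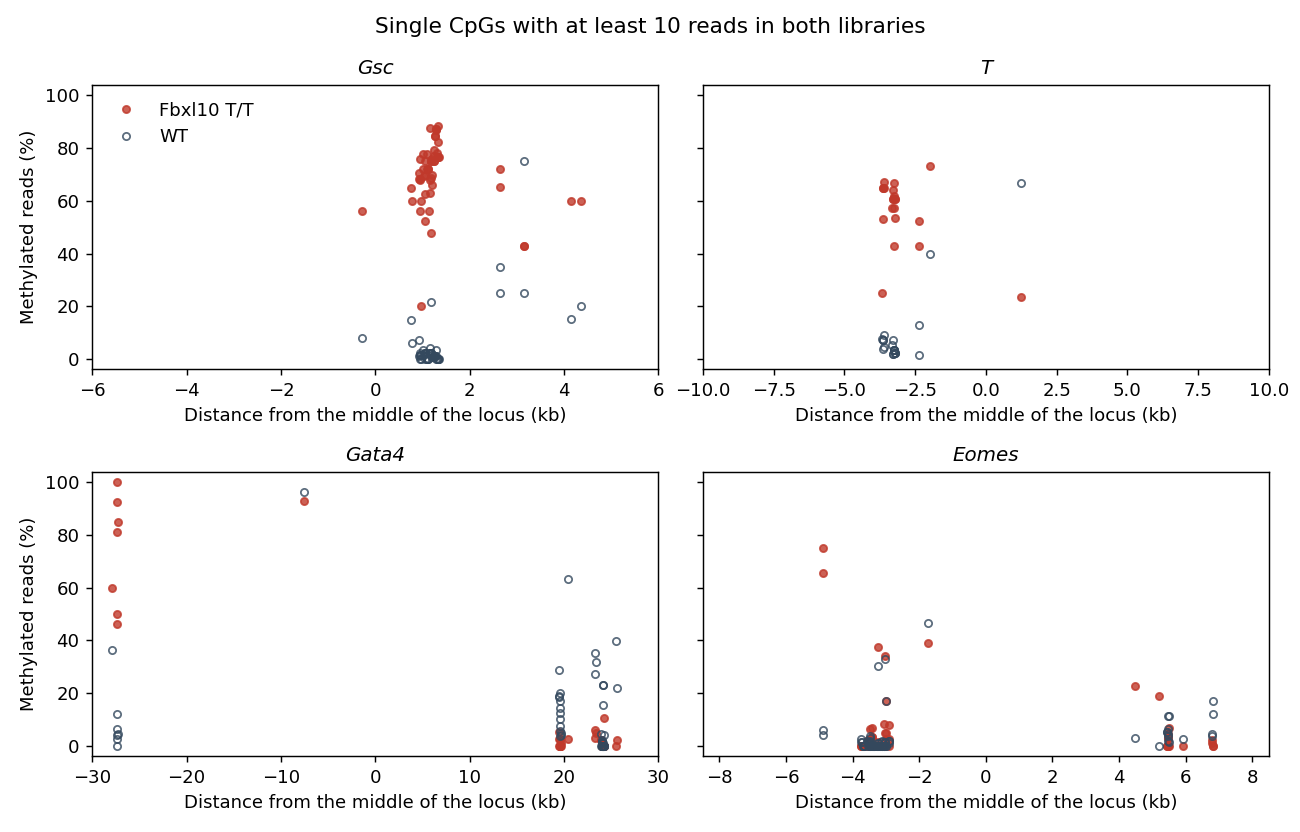
Methylation of single CpGs with at least 10 reads in both Fbxl10 T/T (filled red) and WT (open dark) cells along 4 loci, against distance in kb from the middle of the locus. Nearly all CpGs of Gsc (49 of 54) and T (19 of 21) were called higher in Fbxl10 T/T cells, Gata4 rose only at its left end and was lower at its right end, and at Eomes 2 adjacent CpGs at the left stood apart from a low stretch.

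Eomes, the T-box factor of the anterior primitive streak, had no called window among 5 tested. Its CpG-rich windows stayed low: chr9:118388001-118389000 was at 3.82% of 1621 reads in Fbxl10 T/T cells and 2.89% of 2595 reads in WT cells, a difference of 0.93 points (interval -0.16 to 2.13). The adjoining chr9:118387001-118388000 was at 0.694% of 432 reads in Fbxl10 T/T cells and 0.821% of 731 reads in WT cells. The locus as a whole was 1.73 points above WT in Fbxl10 T/T cells (interval 0.73 to 2.77), and that came with a raised spot too small to test as a window. At chr9:118386613 and chr9:118386615, 75 and 65.6% of 32 reads were methylated in Fbxl10 T/T cells, against 3.92 and 5.88% of 51 reads in WT cells, and both CpGs were called higher. At the far end, chr9:118398001-118399000 was lower, at 0.858% of 233 reads in Fbxl10 T/T cells and 7.78% of 463 reads in WT cells. RefSeq promoters of a second gene, Gm33408, were placed in this locus by their letters. The promoter that spans chr9:118387801-118388100 was at 1.76% of 683 reads in Fbxl10 T/T cells and 0.852% of 1174 reads in WT cells.

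Sox17, an HMG-box factor of definitive endoderm, and Foxa2, a forkhead factor of endoderm and the node, had no window called higher. At Sox17, chr1:4482001-4483000 was at 1.16% of 1288 reads in Fbxl10 T/T cells and 2.11% of 1615 in WT cells, and chr1:4483001-4484000 at 2.06% of 969 and 1.47% of 1632. The least changed of these 2 windows, chr1:4483001-4484000, differed by 0.59 points (interval -0.42 to 1.80). None of 58 single CpGs of Sox17 was called in either direction, where 16.5% and 4.35% of CpGs genome-wide were called higher and lower. The third window, chr1:4487001-4488000, was methylated in part in WT cells and lower in Fbxl10 T/T cells, at 2.29% of 306 reads against 15.3% of 360 (Fisher's exact test, adjusted p = 6.73e-09).

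Foxa2 was the locus with the deepest overall loss, at 4.87% in Fbxl10 T/T cells and 9.57% in WT cells over 81 shared CpGs (-4.70 points, interval -5.95 to -3.43). Of its 6 tested windows 4 were lower with an adjusted p under 0.05, none by 20 points. The most methylated of them in WT cells, chr2:147869001-147870000, was at 11.3% of 151 reads in Fbxl10 T/T cells and 24.1% of 228 reads in WT cells. In chr2:147864001-147865000 the level was 1.91% of 314 reads in Fbxl10 T/T cells, against 20.7% of 479 reads in WT cells. Higher than in WT, but not called, was chr2:147874001-147875000, at 14.1% of 417 reads in Fbxl10 T/T cells and 10.8% of 723 reads in WT cells (3.36 points, interval -0.54 to 7.57). A single CpG in it was called higher: chr2:147874763 was at 62.1% of 29 reads in Fbxl10 T/T cells and 21.4% of 56 reads in WT cells.

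For Foxa2 a RefSeq promoter could be placed, which sets some measured CpGs against a start of the gene. The table, of build GRCm38.p6, has 3 promoters of Foxa2, and all their letters covered by the deposited contexts were the same at 1 position each in the locus. The one with the most letters compared (72) is printed here on the gene's strand, which is the minus strand of mm9, with the 10 CpGs read in both libraries in capitals.
Foxa2 promoter, chr2:147871635-147871934: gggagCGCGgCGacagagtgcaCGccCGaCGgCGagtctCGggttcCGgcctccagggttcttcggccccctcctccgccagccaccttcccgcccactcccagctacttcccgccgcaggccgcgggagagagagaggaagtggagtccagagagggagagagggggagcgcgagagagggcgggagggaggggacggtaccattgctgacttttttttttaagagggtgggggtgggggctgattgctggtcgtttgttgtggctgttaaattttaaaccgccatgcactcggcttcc

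Over the 8 of these CpGs outside CCGG, 0 of 414 reads were methylated in Fbxl10 T/T cells (up to 0.919% by the Wilson interval), and 5 of 514 reads, 0.973%, in WT cells. Each of the 3 Polycomb mutants also had 0 methylated reads there, from 20 to 25 reads each, which allow up to 13.3 to 16.1%. The 8 CpGs lie at chr2:147871894 to chr2:147871928, upstream of the start at chr2:147871684. The promoter's CpGs in lower case, nearer the start or beyond it, were not read in both libraries. The Foxa2 stretch given earlier holds 5 of the 8, so its reads are counted here again. The single promoters listed for Eomes, T and Gsc were not placed, and these loci carry their gene names through the coordinates alone.

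Counted at any size, more windows of the loci were lower than higher in Fbxl10 T/T cells. With an adjusted p under 0.05 and no minimum difference, 12 of the 28 were lower and 6 higher, while 9.78% of all 20072 windows were lower and 34.8% higher. The median difference over the 28 windows was -1.57 points, beside 0.31 points over all windows. The level in WT cells divides them: 17 windows were under 10% in WT cells and 11 between 10 and 30%. Of the 17, 4 were called higher and 5 were lower at any size, where genome-wide 21.3% and 5.99% of 15931 such windows were. Of the 11, 2 were called higher and 7 were lower at any size, whereas 73.1% of 1767 windows of that class genome-wide were called higher and 8.77% were lower. Their median difference was -11.3 points, beside 39.3 points over that class. The 7 lower windows lay at Gata4, Gata6, Sox17 and Foxa2, and windows of 1 locus are not independent of each other. The class edges use the WT level, which also enters the difference, and they were chosen with results of these data known.

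**Figure D3:**
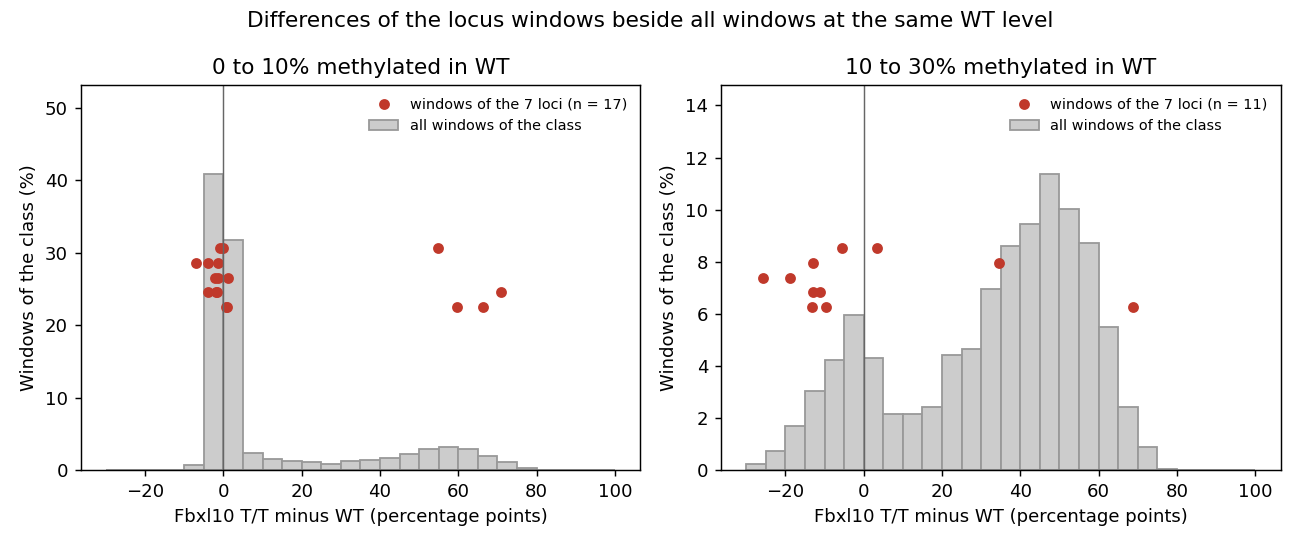
Difference in methylation, Fbxl10 T/T minus WT in percentage points, for windows at 0 to 10% (left) and 10 to 30% (right) in WT cells; grey bars give the share of all tested windows of the class and red points the windows of the 7 loci, whose height has no meaning. On the right, 2 of 11 points lie at 30 points or more, where most windows of the class lie, and 8 lie below 0.

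Gsc, the most raised locus of Fbxl10 T/T cells, was low in all 3 Polycomb mutants. Over the CpGs each library covered, Gsc was at 70.3% in Fbxl10 T/T cells, 3.54% of 113 reads in Ring1B -/- cells, 2.11% of 142 reads in Eed -/- cells, 6.49% of 77 reads in Ezh2 -/- cells and 4.17% of 3265 reads in WT cells. At the 25 CpGs of Gsc covered in all 5 libraries the levels were 71.9%, 4.21%, 2.29%, 6.76% and 3.82% in the same order of genotypes. The 95% intervals of the 3 Polycomb mutants there ended at 10.3%, 6.52% and 14.9%, below the 68.9% at which that of Fbxl10 T/T cells began. Tested directly, chr12:105711001-105712000 was higher in Fbxl10 T/T cells than in Ring1B -/- cells, at 73.2% of 989 reads against 3.66% of 82, with 69.5 points between them (interval 62.4 to 73.1). It was also higher than in Eed -/- cells, at 74.2% of 891 reads against 2.75% of 109, and than in Ezh2 -/- cells, at 73.6% of 806 reads against 0 of 39 reads, which allows up to 8.97%. The WT and Fbxl10 T/T libraries are each shared by several comparisons, which are therefore not independent.

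T could hardly be read in the Polycomb mutants. Its locus had 29 CpG reads in Ring1B -/- cells (17.2% methylated, interval 7.60 to 34.5), 5 in Eed -/- cells and 13 in Ezh2 -/- cells, and no window of T was deep enough to test in them. In Fbxl10 T/T cells 57.9% of 541 reads were methylated there (interval 53.7 to 61.9), above the interval of Ring1B -/- cells. The intervals of Eed -/- cells (3.62 to 62.4) and Ezh2 -/- cells (17.7 to 64.5) overlapped it, over unlike CpGs. At shared CpGs Fbxl10 T/T cells were 38.7 points above Ring1B -/- cells (20.8 to 49.4). They were 47.9 above Eed -/- cells (3.45 to 67.4, 2 CpGs) and 19.4 above Ezh2 -/- cells (-7.93 to 41.7, 5 CpGs). Ring1B -/- cells were 10.1 points above WT cells (0.31 to 27.5). Eed -/- cells were 11.6 above WT cells (-5.73 to 54.2) and Ezh2 -/- cells 27.9 (6.75 to 54.1).

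Ring1B -/- cells had windows called higher than in WT cells at Gata6 and Gata4. Of 7 tested windows 2 were called higher than in WT cells and 0 lower, where genome-wide 1.3% and 0.554% of 8663 windows were called higher and lower. In chr18:11052001-11053000 of Gata6 the level was 45.9% of 85 reads in Ring1B -/- cells, against 7.37% of 882 reads in WT cells (Fisher's exact test, adjusted p = 2.60e-16). In chr14:63859001-63860000 of Gata4 it was 43.1% of 51 reads in Ring1B -/- cells, against 9.24% of 563 reads in WT cells (Fisher's exact test, adjusted p = 2.55e-07). Without the CpG with most methylated reads these windows were at 42.5% and 42.9% in Ring1B -/- cells, against 6.60% and 9.43% in WT cells, and were still called. Neighbouring CpGs share reads, so this check cannot tell whether a few reads or PCR copies carry the windows. The CpGs are thinly read, with at most 13 reads on any CpG of the Gata6 window and 10 on any of the Gata4 window. With at least 10 CpGs per window 1 window was called, and in windows of 2 kb 5 were.

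The whole Gata6 locus was at 52.7% of 150 reads in Ring1B -/- cells, against 9.74% of 2659 reads in WT cells at the 39 shared CpGs (42.9 points, interval 34.9 to 50.8). Gata4 was at 34.6% of 107 reads in Ring1B -/- cells, against 9.71% of 1772 reads in WT cells. Eed -/- cells were also above WT cells, by 12.4 points at Gata4 (interval 4.19 to 23.6) and 7.66 at Gata6 (1.83 to 15.9). The Gata4 value rested on 67 reads in Eed -/- cells. With at least 5 reads per CpG these differences were -12.1 points at Gata4 and 0.77 at Gata6, so neither rise was stable. In Ezh2 -/- cells the differences were 7.91 points at Gata4 (interval -3.12 to 28.3) and 7.84 at Gata6 (3.85 to 13.1). No window of Gata4 was deep enough to test in Eed -/- or Ezh2 -/- cells, so the rise there cannot be called particular to Ring1B -/- cells. At the 18 CpGs of Gata6 covered in all 5 libraries the levels were 6.41% in Fbxl10 T/T cells, 54.8% in Ring1B -/- cells, 9.09% in Eed -/- cells, 15.8% in Ezh2 -/- cells and 7.43% in WT cells. The Ring1B -/- interval, 46.1 to 63.2%, lay above the other 4, and the Ezh2 -/- interval, 10.4 to 23.4%, lay above those of Fbxl10 T/T and WT cells. Sox17 showed no such rise: at its 34 shared CpGs 0.80% of 125 reads were methylated in Ring1B -/- cells and 2.17% of 2632 reads in WT cells.

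Set against Ring1B -/- cells, Fbxl10 T/T cells had 1 of 7 windows called higher (Gsc) and 2 called lower (the Gata6 and Gata4 windows just named), where 20.8% and 0.451% of 8651 windows genome-wide were. The Gata6 window chr18:11052001-11053000 was at 8.44% of 652 reads in Fbxl10 T/T cells and 45.9% of 85 reads in Ring1B -/- cells. The Gata4 window chr14:63859001-63860000 was at 0.893% of 448 reads in Fbxl10 T/T cells and 43.1% of 51 reads in Ring1B -/- cells. The raised Gata4 window of Fbxl10 T/T cells, chr14:63812001-63813000, had too few reads to test in the Polycomb mutants: 0 of 11 were methylated in Ring1B -/- cells (up to 25.9%), 26.7% of 15 in Eed -/- cells and 66.7% of 3 in Ezh2 -/- cells, against 6.34% of 347 in WT cells. The raised Gata6 window, chr18:11048001-11049000, had too few as well. It was at 40% of 5 reads in Ring1B -/- cells, 40% of 5 in Eed -/- cells and 50% of 8 in Ezh2 -/- cells, against 17.9% of 290 in WT cells.

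**Figure D4:**
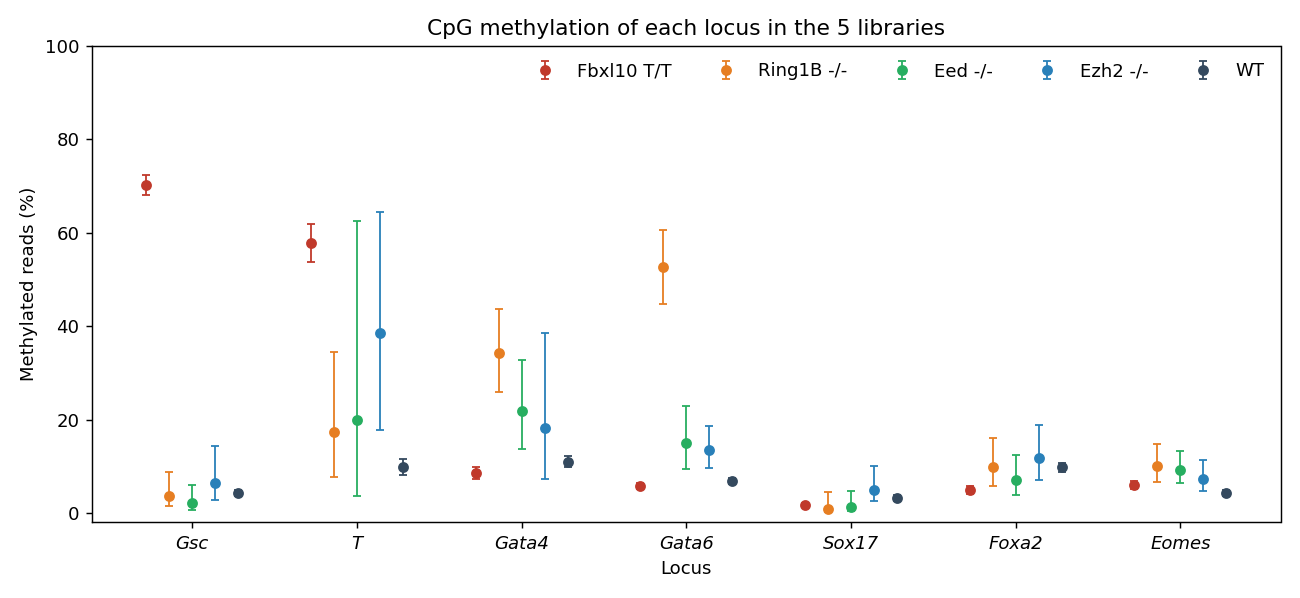
Methylated reads (%) at CpGs outside CCGG over each locus in Fbxl10 T/T, Ring1B -/-, Eed -/-, Ezh2 -/- and WT cells, in that order from left to right, with 95% Wilson intervals from read counts (1 library each). Gsc and T are high in Fbxl10 T/T cells, Gata6 and Gata4 in Ring1B -/- cells, and the wide intervals at T come from 5 to 29 reads in the Polycomb mutants. At Gata4 the intervals of Ring1B -/-, Eed -/- and Ezh2 -/- cells overlap.

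Eed -/- cells had 1 of 11 windows called higher than in WT cells and 0 lower, where 0.352% and 0.671% of 9091 windows were called genome-wide. In chr9:118387001-118388000 of Eomes the level was 23.5% of 34 reads in Eed -/- cells, against 0.965% of 622 reads in WT cells, and 1 CpG made most of that difference. At chr9:118387995 the methylated reads numbered 2 of 90 in Fbxl10 T/T cells, 12 of 17 in Ring1B -/- cells, 7 of 18 in Eed -/- cells, 5 of 11 in Ezh2 -/- cells and 1 of 149 in WT cells. Without it the window was at 6.25% of 16 reads in Eed -/- cells and 1.06% in WT cells and was no longer called (Fisher's exact test, adjusted p = 0.508). The same CpG was thus high in the reads of all 3 Polycomb mutants, and it was picked out after its values were seen. It lies in the Gm33408 promoter chr9:118387801-118388100, which had 16 of 96 reads methylated in Ring1B -/- cells, 9 of 75 in Eed -/- cells and 6 of 48 in Ezh2 -/- cells. That CpG alone gave 12 of the 16, 7 of the 9 and 5 of the 6 methylated reads, so the promoter values mostly restate it.

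In Ezh2 -/- cells 0 of 9 tested windows were called in either direction against WT cells, with 0.211% and 0.787% of 8513 windows called higher and lower genome-wide. At an unadjusted p under 0.05, 2 of the 9 were higher, at Gata6 and Gsc, and 0 lower, where 15.4% and 2.82% of the 8513 windows were. In chr18:11052001-11053000 17.9% of 67 reads were methylated in Ezh2 -/- cells, against 7.37% of 882 reads in WT cells (Fisher's exact test, adjusted p = 0.083), and in chr12:105710001-105711000 14.3% of 35 reads, against 5.05% of 317 reads (Fisher's exact test, adjusted p = 0.259).

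Against the PRC2 mutants the higher calls for Fbxl10 T/T cells again lay at Gsc. Of the windows raised against WT cells, only ones at Gsc were deep enough to test here, so no call at T, or in the raised Gata4 and Gata6 windows, was possible. Of 11 windows tested against Eed -/- cells 2 were called higher, both at Gsc, and 1 lower, the Eomes window that rests on 1 CpG, where 22.1% and 0.298% of 9068 windows were called genome-wide. Of 9 windows tested against Ezh2 -/- cells 2 were called higher, again both at Gsc, and 0 lower, where the background was 21.7% and 0.189% of 8486 windows. In chr12:105710001-105711000 the level was 67.4% of 172 reads in Fbxl10 T/T cells, against 0 of 31 reads in Eed -/- cells (up to 11%) and 14.3% of 35 reads in Ezh2 -/- cells. With at least 5 reads per CpG, 0 of 7 windows were called higher against Ezh2 -/- cells (986 of 4962 genome-wide). Against Eed -/- cells 1 of 5 was called higher (1135 of 5637 genome-wide). Fewer windows were tested at this setting, so the lower counts alone do not show that a difference at Gsc was lost.

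Related regulators were read through their RefSeq promoters, 300 bases each, placed on mm9 by their letters. Of 7589 placed promoters with at least 3 CpGs and 30 reads in both libraries, 14.4% were called higher and 0.316% lower in Fbxl10 T/T cells relative to WT cells. From a list of 12 other endoderm regulators, 4 genes could be tested, of which 2 were called higher and 0 lower. Gata5, a cardiac and endodermal relative of Gata4, was at 59.4% of 387 reads in Fbxl10 T/T cells and 2.55% of 706 reads in WT cells, and Foxa3, a hepatic relative of Foxa2, was at 44.4% of 133 reads and 2.75% of 218 reads. The 2 not called were Hhex, a homeobox gene of anterior endoderm, at 0.240% in Fbxl10 T/T cells and 0.545% in WT cells, and Prox1, a homeobox gene of liver, pancreas and lymphatics. A Prox1 promoter was at 7.41% in Fbxl10 T/T cells, 17.4% of 46 reads in Ring1B -/- cells (interval 9.09 to 30.7), 14.3% of 35 in Eed -/- cells, 3 of 30 reads in Ezh2 -/- cells and 7.66% in WT cells. A second Prox1 promoter had 0 of 27 reads methylated in Ring1B -/- cells (up to 12.5%) and 3 and 4 of 24 reads in Eed -/- and Ezh2 -/- cells.

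From a list of 25 other mesoderm and primitive streak regulators, 4 genes could be tested, 2 of which were called higher and 0 lower. Wnt3, the ligand required to form the primitive streak, was at 60.7% of 405 reads in Fbxl10 T/T cells and 4.07% of 787 reads in WT cells. Wnt3a, the ligand of the later streak and tail bud, was at 51.7% of 410 reads in Fbxl10 T/T cells and 2.37% of 1222 reads in WT cells. Foxc1, a forkhead factor of paraxial mesoderm, was at 16% in Fbxl10 T/T cells and 9.04% in WT cells, under the 20 points a call needs, and Kdr, a receptor of blood and vessel precursors, at 0.228% and 1.3%. In Ring1B -/-, Eed -/- and Ezh2 -/- cells the Wnt3a promoter had 0 methylated reads of 35, 54 and 41, which allow up to 9.89%, 6.64% and 8.57%. The Wnt3 promoter had 4 of 45, 1 of 33 and 3 of 59 reads methylated in these 3 libraries. Foxc1 had 1 of 32 in Ring1B -/- cells, 12 of 42 in Eed -/- cells (28.6%, interval 17.2 to 43.6) and 6 of 32 in Ezh2 -/- cells (18.8%, interval 8.89 to 35.3), beside 9.04% in WT cells. The median difference was -0.25 points over the 5 tested promoters of the endoderm list, beside 0 over the 7589 placed promoters tested. For the 4 of the mesoderm list it was 28.2 points, a midpoint near which no promoter lay. Their differences were 56.7 points at Wnt3, 49.3 at Wnt3a, 6.97 at Foxc1 and -1.07 at Kdr.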

How the data were processed

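The 5 mouse ES cell libraries, 1 per genotype, are of reduced representation bisulfite sequencing. Per the submitters' processing notes, BSMAP 2.74 and build mm9 were used; trimming and removal of duplicates are not given in the sources used here. Per the file headers, each row is 1 cytosine with its strand, 5-letter context, the methylated and total read counts, an effective count and a ratio with its confidence bounds. The deposited counts were used as they stand. The authors' effective total is an expected count, rounded and used in an alternative, and the deposited ratio, a fraction, and its bounds enter no value here. CpGs on the autosomes and X were kept, those inside CCGG left out, and reads summed by 1-kb window. Libraries were compared with Fisher's exact test (numba 0.67.0, checked against scipy 1.17.1 and tested on simulated data), adjusted by Benjamini-Hochberg over all windows, CpGs or promoters; levels carry 95% Wilson intervals and differences Newcombe intervals. For a level of 0 over a window, promoter or printed stretch, the upper Wilson bound is the limit that the reads allow. RefSeq promoters were placed on mm9 by matching their letters to the contexts (9747 of 32619 at 1 position), with no coordinates converted. All 7 members are named, each with its most raised, least changed and most methylated tested windows where they add something, and from the lists the promoters called or least changed. Members and lists were chosen with earlier results of these data known. The alternatives covered CCGG, depth, CpG number, difference, window placing and size, denominator, coverage outliers and centring.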

Additional observations from a re-analysis of the deposited data

Results flagged for a closer look

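Signals outside the comparisons stood above the WT level. CpGs inside CCGG, left out elsewhere, were methylated in 32.0% of reads at the 7 loci in Fbxl10 T/T cells, 48.2% in Ring1B -/- cells, 37.3% in Eed -/- cells and 36.1% in Ezh2 -/- cells, against 26.8% in WT cells. At Gsc the CCGG sites were at 70.8% in Fbxl10 T/T cells, 59.5% in Ring1B -/- cells, 52.8% in Eed -/- cells, 34.5% in Ezh2 -/- cells and 30.5% in WT cells. At cytosines outside CpG, 2.89% of reads in Ring1B -/- cells, 2.29% in Eed -/- cells and 2.27% in Ezh2 -/- cells showed C, against 0.516% in WT cells. The part of these signals in the CpG levels was not tested.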

How the results depend on the processing

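The number of windows tested changes with several alternatives, so the counts below are not all of the same windows. The 6 of 28 windows called higher in Fbxl10 T/T against WT cells numbered 4 to 9 over the 13 alternatives. They were 9 of 34 when CpGs inside CCGG were kept (6957 of 34695 genome-wide). With at least 10 CpGs per window they were 4 of 19 (3166 of 12986 genome-wide). The 1 window called lower became 2 of 34 with CCGG kept (3583 of 34695 genome-wide) and 2 of 32 with at least 3 CpGs (2542 of 28657). At a minimum difference of 10 points it became 6 of 28 (893 of 20072). It became 0 of 22 with at least 10 reads per CpG and 0 of 19 with at least 10 CpGs. At a minimum difference of 30 points it became 0 of 28, and in 2-kb windows 0 of 21. The 2 of 7 windows called higher in Ring1B -/- against WT cells became 4 of 16 with CCGG kept (405 of 12993 genome-wide). In 2-kb windows they became 5 of 10 (120 of 8342 genome-wide). They became 1 of 2 with at least 10 reads per CpG (9 of 1073) and 1 of 6 with at least 10 CpGs (70 of 6813). The 1 of 11 windows called higher in Eed -/- against WT cells became 0 of 16 with CCGG kept. It became 0 of 5 with at least 5 reads per CpG, 0 of 1 with at least 10 and 0 of 7 with at least 10 CpGs. With the mean over CpGs and at 30 points it became 0 of 11, in shifted windows 0 of 9 and in 2-kb windows 0 of 11. In Ezh2 -/- against WT cells the counts stayed at 0 wherever a window could be tested.

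For Fbxl10 T/T against Ring1B -/- cells, the 1 higher window became 3 with CCGG kept and 0 with at least 10 reads per CpG, and the 2 lower windows became 5 with CCGG kept, 5 in 2-kb windows, and 1 with at least 10 reads per CpG or at least 10 CpGs. Against Eed -/- cells, the 2 higher of 11 windows became 1 of 5 with at least 5 reads per CpG (1135 of 5637 genome-wide). They became 0 of 1 with at least 10 (204 of 1218) and 1 of 7 with at least 10 CpGs (1461 of 7143). In shifted windows they became 1 of 9 (2018 of 9076) and in 2-kb windows 1 of 10 (1982 of 8672). The 1 lower window became 2 of 16 with CCGG kept (231 of 13337) and 2 of 11 at 10 points (185 of 9068). It became 0 of 5 with at least 5 reads per CpG and 0 of 1 with at least 10. With at least 10 CpGs it became 0 of 7. With the mean over CpGs and at 30 points it became 0 of 11, and in shifted windows 0 of 9. Against Ezh2 -/- cells, the 2 higher of 9 windows became 0 of 7 with at least 5 reads per CpG (986 of 4962 genome-wide). They became 1 of 8 with at least 10 CpGs (1327 of 6675). In shifted windows they became 1 of 9 (1838 of 8491) and in 2-kb windows 1 of 8 (1826 of 8166). With CCGG kept, 1 gene of the endoderm list was called lower, against 0. The causes were not tested.

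Of the locus differences, 88 of 102 alternatives stayed within the interval of the value reported and 12 moved outside it. The sign changed in 7. In 5 of these the reported interval includes 0: with CCGG kept Sox17 in Ring1B -/- (4.63 points, reported as -1.37) and Gsc in Eed -/- cells (4.09, reported as -1.28), with at least 5 reads per CpG Foxa2 in Eed -/- cells (0.20, reported as -3.28), and with at least 10 Foxa2 in Ring1B -/- (-7.08, reported as 1.28) and Sox17 in Ezh2 -/- cells (-1.03, reported as 1.93). The other 2 were of Gata4, whose reported intervals exclude 0: Fbxl10 T/T minus WT was 0.52 points with CCGG kept (-2.66 without), and Eed -/- minus WT was -12.1 points with at least 5 reads per CpG (12.4 with all CpGs). Windows of the loci could not be tested with at least 10 reads per CpG in the 2 comparisons that involve Ezh2 -/- cells. No paired analysis was possible because there was 1 library per genotype. Leaving out single CpGs, the counts of lower and higher windows at any size, the unadjusted counts for Ezh2 -/- cells and the classes of WT level were chosen after seeing the data.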
